A study of Mus musculus with 7 samples.

Results

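Interferon-stimulated genes are the genes that cells switch on after an interferon has bound its receptor. 37 of them, given as a list of gene symbols, were followed through the RNA of injured mouse kidneys. Each symbol was matched to its row of the deposited count table, which holds 42256 genes. All 37 were found, and all 37 were among the 17964 genes that passed the filter on low counts.

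Interferons are secreted antiviral cytokines. Type I interferons signal through IFNAR1 and IFNAR2 and activate ISGF3, a complex that includes STAT2 and IRF9 and binds the interferon-stimulated response element in target promoters. Interferon gamma signals through IFNGR1 and IFNGR2 and acts through the gamma-activated site to raise IRF1 and the interferon-induced GTPases. In kidney, these genes are known to respond in tubular and endothelial cells as well as in the leukocytes that enter injured tissue.

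Kidney RNA came from adult male mice of a mixed 129S1/Sv x C57BL/6 background, in 7 libraries. Every mouse had undergone uninephrectomy, the removal of a kidney, and had received angiotensin II (AngII) at 800 ng/kg/min from an osmotic pump, and kidneys were collected after 4 weeks. The groups were 3 libraries labelled CDH11+/+ and 4 labelled CDH11-/-, that is, with and without a functional gene for cadherin-11, an adhesion molecule of mesenchymal cells. The labels do not describe the allele or say whether the mice were littermates, and no mouse without injury was included. Each library is listed as a separate sample, though not expressly as a separate mouse, so p-values measure the spread between these samples. Replicate numbers only name libraries.

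The groups were compared across all genes with edgeR's quasi-likelihood test, and a gene is called where its Benjamini-Hochberg adjusted p was under 0.05. Levels are counts scaled to library size (CPM), and log2 fold changes are CDH11-/- over CDH11+/+. Total counts ranged from 72087906 to 84786351 per library. Proximal tubule markers summed to 10385 to 19401 CPM, so transcripts that define kidney were present in every library. The libraries labelled CDH11-/- still held Cdh11 transcripts, at 11.3, 9.56, 11.6 and 11 CPM, against 6.79, 4.52 and 10.8 CPM in those labelled CDH11+/+ (log2 fold change 0.56 with SE 0.25, adjusted p = 0.14). A deletion that leaves the transcript in place cannot be told apart here from a label that does not hold, so genotypes are given as labelled throughout. 4 Y-linked genes, picked after their values were seen, summed to 64.7 CPM in CDH11+/+ replicate 3 and to 111 to 145 CPM in the other 6 libraries.

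Promoter sequences show how far the members share the elements through which interferons act. Windows of 250 bases before to 50 bases after each start, from RefSeq on GRCm38.p6, were searched on both strands for GAAANNGAAA, the core of the interferon-stimulated response element, and for TTCNNNGAA, the core of the gamma-activated site, which reads the same on both strands. 28 members matched the table. The others were Oas2, Dhx58, Zbp1, Usp18, Iigp1, Parp9, Parp14, Ifi27 and Rtp4. GAAANNGAAA was found in 15 of the 28 (53.6%), against 3.99% of 27025 genes, and TTCNNNGAA in 8 of the 28 (28.6%), against 9.55%. Trim25, called higher below, held neither. The following stretches of 60 bases were picked from members with a match, and not every such member is shown. They run 5′ to 3′ on the gene's strand, and capitals mark bases covered by GAAANNGAAA or its reverse complement, except in Irf1, where they mark TTCNNNGAA.
Isg15 (chr4:156200856-156200915, minus strand): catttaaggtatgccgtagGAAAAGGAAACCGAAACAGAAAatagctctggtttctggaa
Ifit1 (chr19:34640769-34640828, plus strand): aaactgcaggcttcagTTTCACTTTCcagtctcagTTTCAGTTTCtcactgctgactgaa
Ifit3 (chr19:34583365-34583424, plus strand): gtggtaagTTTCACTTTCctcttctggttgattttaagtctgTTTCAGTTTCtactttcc
Gbp3 (chr3:142559977-142560036, plus strand): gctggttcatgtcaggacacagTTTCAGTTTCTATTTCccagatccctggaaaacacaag
Irgm1 (chr11:48871421-48871480, minus strand): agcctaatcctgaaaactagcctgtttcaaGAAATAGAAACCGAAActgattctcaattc
Igtp (chr11:58199496-58199555, plus strand): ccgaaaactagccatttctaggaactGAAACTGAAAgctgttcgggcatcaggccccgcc
Irf1 (chr11:53769898-53769957, plus strand): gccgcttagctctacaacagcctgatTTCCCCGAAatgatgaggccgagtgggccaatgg

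Ifit1 and Ifit3 each held separate copies of the element within the 60 bases shown, and in Isg15, Gbp3 and Irgm1 matches ran into each other. A match describes letters, not binding. The 15 members with a GAAANNGAAA match had a median log2 fold change of -0.25, with 13 of 15 below 0. The 13 without one had a median of -0.11, with 9 of 13 below 0. Split by TTCNNNGAA, the order was the other way, with a median of -0.15 in the 8 members with a match (6 of 8 below 0) and -0.23 in the 20 without (16 of 20 below 0). Neither split was tested.

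Few of the interferon-stimulated genes differed between the labelled genotypes. Trim25, a ubiquitin ligase that activates the RNA sensor RIG-I, was higher in the libraries labelled CDH11-/-, and Irf1 and Parp14 were lower. These were the 3 members called of 37 (8.11%), against 29.7% of the 17964 genes tested. By direction, 1 member was called higher, against 16.8% of all genes, and 2 were called lower, against 12.9%. At an unadjusted p under 0.05 (edgeR), 7 members differed, against 40.8% of all genes. Of the 37, 6 were lower at that threshold, against 18.7% of all genes. Both groups' values failed to overlap in 2 members (5.41%), Trim25 and Irf1, against 38.5% of all genes.

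Most members nevertheless lay a little below 0. The log2 fold change was negative in 29 of 37 (78.4%), against 51.3% of all genes. The median was -0.19, against -0.01 over all genes, and the range ran from -0.78 for Ifit1 to 0.50 for Trim25. The median standard error of a member was 0.19, against 0.12 over all genes.

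The number of members called turned on single libraries. Without CDH11+/+ replicate 2, 15 members were called, against 23.0% of all genes in that fit, and the median was -0.37. These were Trim25, which was higher, and 14 that were lower: Irf1, Stat2, Ifit1, Ifit2, Ifit3, Ddx58, Zbp1, Isg15, Gbp2, Gbp3, Parp14, Rsad2, Bst2 and Ifi44. Without CDH11+/+ replicate 3, the 2 called were Trim25 and Igtp, both higher, against 29.3% of all genes, and the median was -0.08. Without CDH11+/+ replicate 1 or without CDH11-/- replicate 2, the 1 member called was Trim25, against 20.8% and 23.3% of all genes. The members' count thus lay below the share of all genes with all 7 libraries and above it without CDH11+/+ replicate 2.

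**Figure D1:**
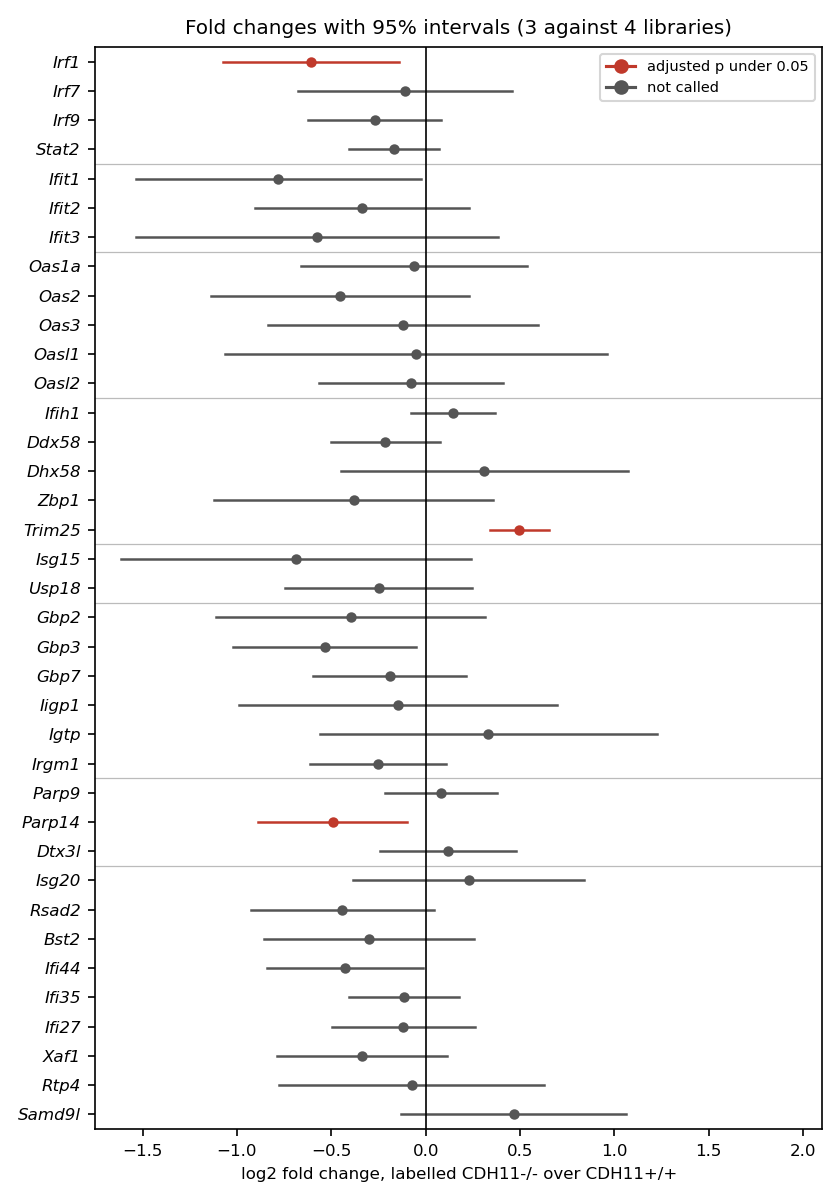
Log2 fold change (labelled CDH11-/- over CDH11+/+, horizontal axis) of each of the 37 genes with its 95% interval, grouped by role. Points lie left of 0 for 29 genes, and only Trim25, Irf1 and Parp14, in red, had an adjusted p under 0.05.

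Among the transcription factors, Irf1 was lower in the kidneys labelled CDH11-/-. IRF1 drives many of the targets of interferon gamma. Irf1 (chromosome 11, 53770014 to 53778374, plus strand) was at 15.2, 12.7 and 22.4 CPM in the libraries labelled CDH11+/+, and at 10.7, 11.2, 12.6 and 9.62 CPM in those labelled CDH11-/-. All 4 CDH11-/- values lay below all 3 CDH11+/+ values, though replicate 2 of CDH11+/+ was only just above the highest of them. Means were 16.8 ± 5.0 (SD, n = 3) and 11 ± 1.24 (SD, n = 4), a log2 fold change of -0.61 with SE 0.18 (edgeR, adjusted p = 0.0363). The call was lost without CDH11+/+ replicate 1 or 3, and without CDH11-/- replicate 1, 2 or 4, and its adjusted p ran from 0.00388 to 0.0836 over 17 alternatives.

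Stat2 and Irf9, which encode parts of ISGF3, and Irf7, which amplifies type I interferon production, did not pass the test. Their log2 fold changes were -0.17 for Stat2, -0.27 for Irf9 and -0.11 for Irf7. Without CDH11-/- replicate 4, Irf9 was called lower, at -0.38 (edgeR, adjusted p = 0.0396). By whole gene spans, Irf9 overlaps Rnf31 on the same strand and Irf7 overlaps Phrf1 on the opposite strand. Reads of each pair may have been divided between its genes, though overlap of exons was not examined.

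None of the 3 Ifit genes was called by edgeR. IFIT proteins bind viral RNA that lacks host cap methylation, and their genes lie side by side on chromosome 19. Ifit3, the most abundant per kilobase of exon at 5.99 CPM per kb, was at 17.6, 5.38 and 15.7 CPM in the libraries labelled CDH11+/+. In those labelled CDH11-/- it was at 9.38, 7.17, 9.80 and 8.2 CPM. Replicates 1 and 3 of CDH11+/+ lay above all 4 CDH11-/- libraries and replicate 2 lay below all 4. The log2 fold change was -0.58 with SE 0.37 (edgeR, adjusted p = 0.293), and reads may be shared with its near copy Ifit3b.

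Ifit1 had the most negative fold change of the 37, -0.78 with SE 0.29, an unadjusted p of 0.0271 and an adjusted p of 0.0782. It was at 4.34, 2.29 and 5.50 CPM in the libraries labelled CDH11+/+ and at 1.72, 2.14, 3.02 and 2.53 CPM in those labelled CDH11-/-, so replicate 2 of CDH11+/+ sat inside the CDH11-/- range. Ifit2 had a log2 fold change of -0.34. DESeq2 called 1 of the 3 genes, and edgeR put 1, Ifit1, at an unadjusted p under 0.05. Without CDH11+/+ replicate 2, edgeR called all 3 lower.

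The OAS family showed no call among 5 genes, with 0 under an unadjusted p of 0.05 in edgeR and 0 called by DESeq2. OAS1, OAS2 and OAS3 make the oligoadenylates that activate RNase L, and the OAS-like proteins act in RNA sensing. All 5 genes lie on chromosome 5. Oasl2, the most abundant per kilobase at 0.93 CPM per kb, was at 7.10, 4.43 and 6.84 CPM in CDH11+/+ and at 4.56, 5.99, 6.95 and 5.69 CPM in CDH11-/-, and the groups overlapped throughout. Log2 fold changes were -0.06 for Oas1a, -0.45 for Oas2, -0.12 for Oas3, -0.05 for Oasl1 and -0.08 for Oasl2. Oas3 was the scarcest member per kilobase, at 0.056 CPM per kb. Reads of these related genes may be divided among close copies.

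Trim25 had the smallest adjusted p of all 37 genes, and it was the member called higher. Trim25 (chromosome 11, 88999376 to 89020293) was at 60.4, 64.3 and 67.1 CPM in CDH11+/+ and at 88.5, 94.8, 90.4 and 87.0 CPM in CDH11-/-. The groups were far apart and tight, with means of 63.9 ± 3.39 (SD, n = 3) and 90.2 ± 3.41 (SD, n = 4). That is a 1.41-fold difference, a log2 fold change of 0.50 with a 95% interval of 0.34 to 0.65 (edgeR, adjusted p = 5.56e-04). Trim25 was called under each of the 17 alternatives tried, with log2 fold changes of 0.45 to 0.52. It was also the second most abundant member per kilobase, at 13.7 CPM per kb.

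The other sensing genes encode MDA5 (Ifih1), RIG-I (Ddx58), their regulator LGP2 (Dhx58) and the Z-nucleic acid sensor ZBP1. Their log2 fold changes were 0.15 for Ifih1, -0.21 for Ddx58, 0.31 for Dhx58 and -0.38 for Zbp1. Ddx58, whose protein is the target of TRIM25, was at 23.4, 19.4 and 27.2 CPM in CDH11+/+ and at 18.5, 18.9, 21.4 and 21.5 CPM in CDH11-/-. Its 2 highest libraries were thus in the group where Trim25 was lower, and its difference had an adjusted p of 0.183 (edgeR).

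Neither gene of the ISG15 system passed the test in edgeR, with 0 at an unadjusted p under 0.05 and 0 called by DESeq2. Isg15 encodes a ubiquitin-like modifier and Usp18 the protease that removes it and damps interferon receptor signalling. Isg15 was at 1.80, 0.82 and 2.07 CPM in CDH11+/+ and at 0.83, 0.81, 1.52 and 0.73 CPM in CDH11-/-. Replicates 1 and 3 of CDH11+/+ were the highest of the 7, replicate 2 lay among the CDH11-/- values, and CDH11-/- replicate 3 stood above its group. The log2 fold change of Isg15 was -0.69 with SE 0.36 (edgeR, adjusted p = 0.187), and that of Usp18 was -0.25.

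None of the 6 interferon-induced GTPases was called by edgeR, 1 had an unadjusted p under 0.05, and DESeq2 called 1. The guanylate-binding proteins (Gbp2, Gbp3, Gbp7) and the immunity-related GTPases (Iigp1, Igtp, Irgm1) attack vacuoles that hold pathogens, and interferon gamma is their classic inducer. Igtp, the most abundant per kilobase at 4.84 CPM per kb, was at 6.85, 4.95 and 13.8 CPM in CDH11+/+ and at 7.95, 12.3, 12.5 and 10.2 CPM in CDH11-/-. Replicate 3 of CDH11+/+ was above all other libraries while the other 2 of that group were below all 4 CDH11-/- libraries. The log2 fold change was 0.33 with SE 0.35 (edgeR, adjusted p = 0.515), and without CDH11+/+ replicate 3 it was 0.86 (adjusted p = 0.0223). The span of Igtp overlaps that of Irgm2 on the same strand.

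Gbp3, unlike Igtp, had its lowest value in a library labelled CDH11-/-. It was at 7.80, 4.63 and 8.39 CPM in CDH11+/+ and 4.67, 4.35, 5.32 and 4.82 CPM in CDH11-/-. Replicate 2 of CDH11+/+ again lay inside the CDH11-/- range, and the log2 fold change of Gbp3, -0.53, missed the threshold (edgeR, adjusted p = 0.061). The remaining log2 fold changes were -0.40 for Gbp2, -0.19 for Gbp7, -0.15 for Iigp1 and -0.25 for Irgm1. The Gbp genes lie together on chromosome 3, and reads may be divided among close copies.

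Parp14 was lower in the libraries labelled CDH11-/-, and its neighbours Parp9 and Dtx3l did not pass the test. PARP9 and the ubiquitin ligase DTX3L form a complex, and PARP14 is an ADP-ribosyltransferase. The genes adjoin on chromosome 16, with Parp14 from 35832874 to 35871544. Parp14 was at 33.2, 23.8 and 39.2 CPM in CDH11+/+ and at 20.8, 21.8, 25.3 and 23.3 CPM in CDH11-/-. Replicates 1 and 3 of CDH11+/+ were the highest, and CDH11-/- replicate 3 overlapped CDH11+/+ replicate 2. Means were 32.1 ± 7.79 (SD, n = 3) and 22.8 ± 1.97 (SD, n = 4), a log2 fold change of -0.49 with SE 0.15 (edgeR, adjusted p = 0.0416). The call was lost without any 1 library except CDH11+/+ replicate 2, and the adjusted p ran from 0.00309 to 0.116 over 17 alternatives.

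Parp9 and Dtx3l, which overlap on opposite strands, had log2 fold changes of 0.08 and 0.12. A ratio within each library, chosen after the values were seen, sets Parp14 against these neighbours. Parp14 over Parp9 was 2.78, 2.33 and 2.85 in CDH11+/+ and 1.91, 1.61, 1.93 and 1.78 in CDH11-/-. The groups did not overlap in this ratio, although they did in Parp14 itself. The mean log2 ratio of CDH11-/- differed from that of CDH11+/+ by -0.55 for Parp14 over Parp9, by -0.60 for Parp14 over Dtx3l and by -0.04 for Parp9 over Dtx3l. These differences restate the values above, and no p-value is given because the ratios were chosen after those values were seen.

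None of the 9 other effectors was called by edgeR, while 2 had an unadjusted p under 0.05, and DESeq2 called 2. Samd9l, an antiviral factor that also restrains cell growth, was the most abundant member per kilobase at 21.9 CPM per kb. It was at 114, 95.5 and 84.1 CPM in CDH11+/+ and at 92.6, 189, 122 and 137 CPM in CDH11-/-. CDH11-/- replicate 2 was far above the rest and replicate 1 lay within the CDH11+/+ range. The log2 fold change of Samd9l was 0.47 with SE 0.23 (edgeR, adjusted p = 0.174), and without CDH11-/- replicate 1 it was 0.61 (adjusted p = 0.0439).

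Rsad2, which encodes the antiviral enzyme viperin, had a log2 fold change of -0.44 and Ifi44 one of -0.43, with adjusted p-values of 0.118 and 0.0752 (edgeR). Rsad2 was at 23.3, 18.2 and 30.0 CPM in CDH11+/+ and at 19.5, 19.4, 18.2 and 13.1 CPM in CDH11-/-. CDH11-/- replicate 4 was lowest and CDH11+/+ replicate 3 highest. Log2 fold changes were -0.30 for Bst2, which encodes the virion-retaining protein tetherin, -0.34 for Xaf1, an antagonist of the apoptosis inhibitor XIAP, and 0.23 for the exonuclease gene Isg20. Ifi35 had -0.11, Ifi27 -0.12 and Rtp4, whose row overlaps Masp1 on the opposite strand, -0.07.

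**Figure D2:**
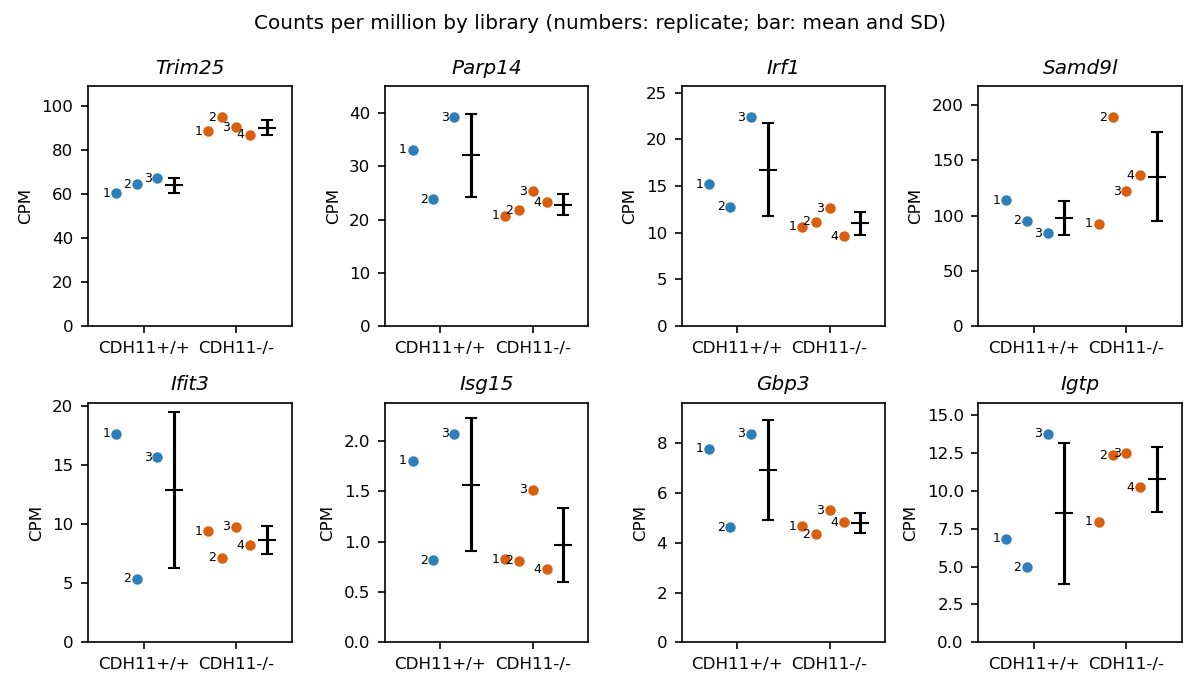
CPM (vertical axes, from 0) of 8 of the 37 genes in each library, numbered by replicate, with the mean and SD of each group as a bar. The groups are apart for Trim25, barely apart for Irf1, and overlap for the other 6, with CDH11+/+ replicate 2 low in Ifit3, Isg15, Gbp3 and Igtp.

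The members varied more among the 3 libraries labelled CDH11+/+ than among the 4 labelled CDH11-/-. The median SD of log2 CPM over members was 0.40 in CDH11+/+ and 0.18 in CDH11-/-, against 0.15 and 0.14 over all genes. In 32 of 37 members (86.5%) the CDH11+/+ libraries had the larger SD, against 55.9% of all genes. The other 5 were Samd9l, Oas3, Irf9, Ifi35 and Ifih1. Between the highest and the lowest CDH11+/+ library, Oasl1 differed 3.48-fold, Ifit3 3.28-fold, Iigp1 2.91-fold and Igtp 2.78-fold. Among CDH11-/- libraries the same ratios were 1.54, 1.37, 1.59 and 1.57.

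**Figure D3:**
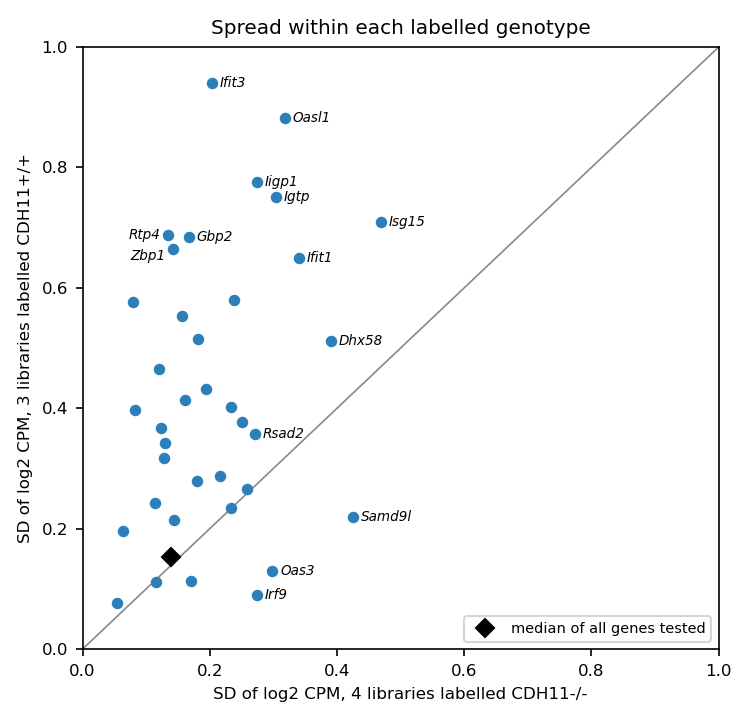
SD of log2 CPM among the 3 CDH11+/+ libraries (vertical axis) against that among the 4 CDH11-/- libraries (horizontal axis), one point per gene, with the line of equal spread. Of 37 points 32 lie above the line, with Ifit3 and Oasl1 at the top, and the black diamond marks the medians of all genes tested, 0.15 and 0.14.

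The same library was the lowest of the CDH11+/+ group in nearly every member. This library, CDH11+/+ replicate 2, was the lowest of all 7 in Irf7, Ifit2, Ifit3, Oas1a, Oasl1, Oasl2, Ifih1, Dhx58 and Zbp1. The same held for Gbp2, Iigp1, Igtp, Parp9, Dtx3l, Isg20, Bst2, Ifi27 and Rtp4, against 16.8% of all genes. It was not always low beside CDH11-/-: in Irf1 it was at 12.7 CPM, against 9.62 to 12.6 CPM in CDH11-/-. CDH11+/+ replicate 2 was the lowest of the 3 CDH11+/+ libraries in 35 of 37 members, all but Trim25 and Samd9l, against 31.7% of all genes. CDH11+/+ replicate 3 was the highest of the 3 in 26 members, against 38.3% of all genes, and replicate 1 in the other 11. Replicate 3 was the highest of all 7 libraries in 22 members, against 18.2% of all genes. It is also the library with the lowest Y-linked sum, 64.7 CPM, and a link between these traits was not tested. The members share these libraries, so they are not separate observations of the pattern.

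As deviations from each gene's mean over the 7 libraries, the median member stood at 0.22, -0.31 and 0.35 (log2) in CDH11+/+. In CDH11-/- it stood at -0.20, -0.17, 0.08 and 0.02. The CDH11-/- libraries thus lay between CDH11+/+ replicate 2 and the other libraries of that group.

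**Figure D4:**
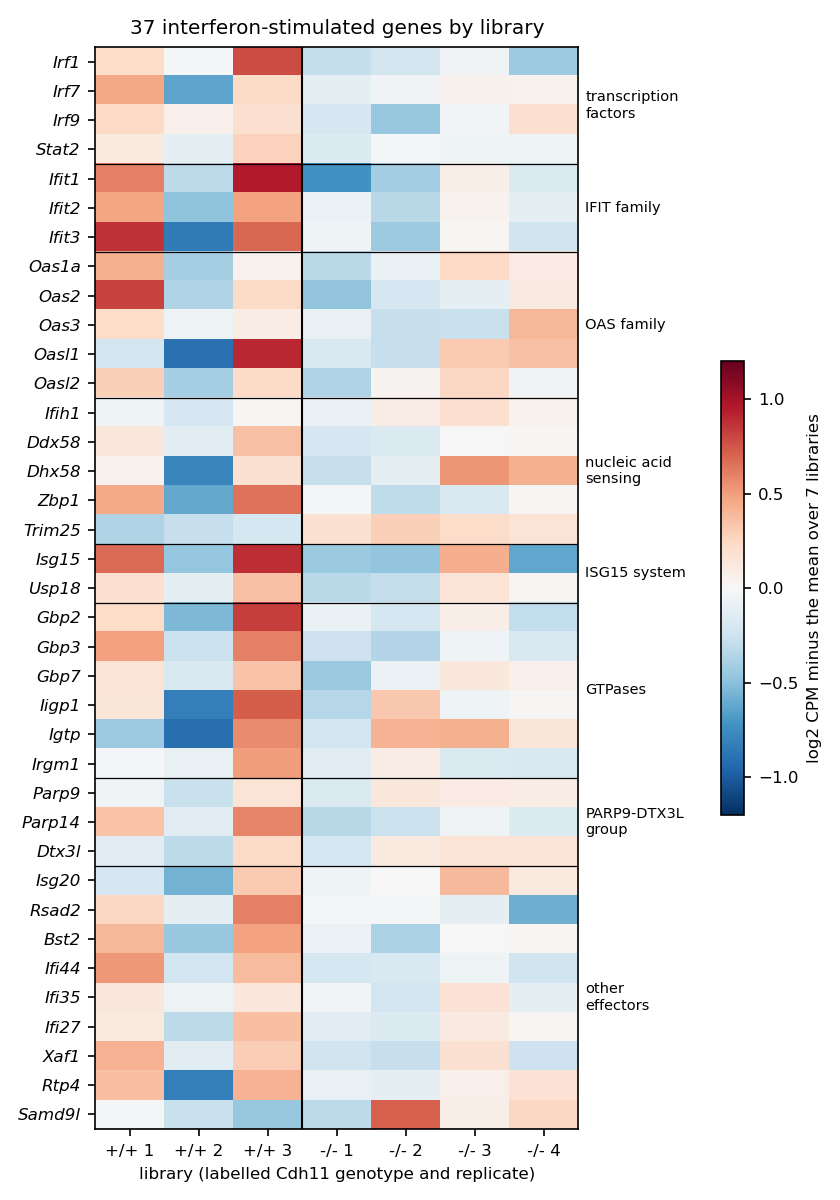
Log2 CPM of each of the 37 genes minus its mean over the 7 libraries (colour), by library (columns) and role (rows). The column of CDH11+/+ replicate 2 is blue in nearly all rows and that of replicate 3 mostly red, while Trim25 separates the groups.

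Leukocyte markers shared the order of the 3 CDH11+/+ libraries, and the pan-leukocyte sums nearly that of all 7. 5 pan-leukocyte markers summed to 38.9, 24.5 and 51.3 CPM in CDH11+/+ and to 31.5, 29.8, 35.6 and 31.7 CPM in CDH11-/-. From lowest to highest, these sums followed the median member over all 7 libraries, except that CDH11-/- replicates 1 and 2 changed places. All 5 markers were lowest of the 3 CDH11+/+ libraries in replicate 2 and highest in replicate 3. None of the 5 was called by edgeR or DESeq2, and 0 had an unadjusted p under 0.05. Without CDH11+/+ replicate 2, edgeR called 1 of the 5 lower. 10 macrophage and dendritic cell markers summed to 52.9, 31.0 and 70.5 CPM in CDH11+/+ and to 58.5 to 74.4 CPM in CDH11-/-, which is not the members' order over all 7. Csf1r alone was at 26.4, 14.7 and 30.1 CPM in CDH11+/+ and at 38.0 to 47.6 CPM in CDH11-/-. Of the 10, 5 had a log2 fold change below 0, among them Adgre1 at -0.64 and Itgam at -0.51. Csf1r and Itgax were called higher (20% of the 10), against 16.8% of all genes. These calls turned on single libraries, since 0 of 10 were called without CDH11+/+ replicate 1 or without CDH11-/- replicate 1, 3 or 4, while 3 were called lower without CDH11+/+ replicate 2. T, NK and B cell markers summed to 3.39, 1.54 and 5.33 CPM in CDH11+/+ and to 2.95 to 3.39 CPM in CDH11-/-. With all libraries, 0 of 8 tested in edgeR were called by edgeR or DESeq2 and 0 had an unadjusted p under 0.05. Without CDH11+/+ replicate 2, edgeR called 1 of 9 tested lower. Ncr1, Klrb1c and Cd209d, markers of NK cells and dendritic cells, had too few counts to be tested. Plasmacytoid dendritic cell markers summed to only 0.19 to 0.67 CPM in any library. In whole tissue, fewer cells of a type and less RNA per cell cannot be told apart, and the part of leukocytes in the members' spread was not tested.

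Markers of resident kidney cells differed between the labelled genotypes. Of 10 proximal tubule markers 6 were called higher, against 16.8% of all genes, with sums of 10385 to 11796 CPM in CDH11+/+ and 17223 to 19401 CPM in CDH11-/-. Of 7 markers of other nephron segments 3 were called lower, against 12.9% of all genes, with all 7 below 0 and sums of 5711 to 6416 CPM in CDH11+/+ and 3980 to 4577 CPM in CDH11-/-. That count was 1 without CDH11+/+ replicate 1 or without CDH11-/- replicate 2 or 3. Of 8 endothelial markers 3 were called lower, against the same 12.9%, with sums of 545, 501 and 627 CPM in CDH11+/+ and 408 to 476 CPM in CDH11-/-. Their part in the members' differences was not tested either.

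**Figure D5:**
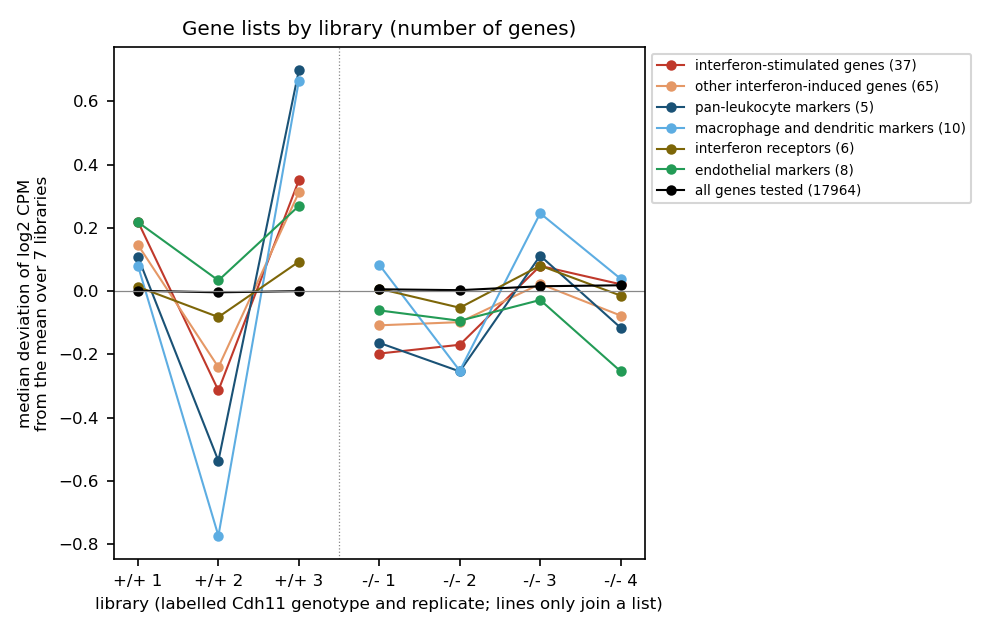
Median deviation of log2 CPM from each gene's mean over 7 libraries (vertical axis) for 6 gene lists and all genes tested, by library. The 37 interferon-stimulated genes, other interferon-induced genes and both leukocyte lists dip in CDH11+/+ replicate 2 and peak in replicate 3, and all genes stay near 0.

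Upstream of these genes, the interferons themselves were barely represented. Of 21 ligand genes 15 had 0 counts in every library, Ifnz had 1 to 7 counts and Ifng 0 to 5, and none passed the filter. All ligands together made up 0.05 to 0.17 CPM. A difference in ligand transcripts was not detectable at this depth.

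The receptors were present and none of 6 was called by edgeR or DESeq2, with 0 at an unadjusted p under 0.05 in edgeR. Ifnar1 had a log2 fold change of -0.13 and was at 46.9, 43.3 and 47.9 CPM in CDH11+/+ and at 43.6, 42.0, 40.0 and 42.5 CPM in CDH11-/-. Ifngr1 had one of -0.02. Ifnar1 thus stayed within a narrow range in all 7 libraries.

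Among the 42 tested genes of the pathway outside the 37, 7 were called (16.7%), 2 higher and 5 lower, against 29.7% of all genes.

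Of 11 kinases, STATs and IRFs, 4 were called (36.4%, against 29.7% of all genes), 2 higher and 2 lower. Irf5, a driver of inflammatory cytokines in myeloid cells, rose from 4.52, 2.64 and 4.39 CPM in CDH11+/+ to 8.56, 10.9, 11.5 and 12.5 CPM in CDH11-/- (Irf5 log2 fold change 1.49, edgeR, adjusted p = 1.14e-03). Stat3, which carries interleukin-6 signals, fell by 0.58 and Irf2, an antagonist of IRF1, fell by 0.40.

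Of 15 sensors and adaptors, 2 were called (13.3%, against 29.7% of all genes), both lower. Mavs, the mitochondrial adaptor of RIG-I and MDA5, had a log2 fold change of -0.47 and Ticam1, the adaptor of TLR3, one of -0.46. Mavs was at 81.1, 84.5 and 92.1 CPM in CDH11+/+ and at 67.4, 59.3, 58.1 and 63.5 CPM in CDH11-/-. The groups did not overlap in Mavs, as in 38.5% of all genes.

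Of 10 feedback inhibitors 1 was called, Socs3 (10%, against 29.7% of all genes). SOCS3 blocks JAK kinases bound to cytokine receptors. Socs3 was at 4.69, 3.91 and 14.6 CPM in CDH11+/+ and 2.60, 2.45, 2.71 and 2.12 CPM in CDH11-/-, with CDH11+/+ replicate 3 far above the rest. Its log2 fold change was -1.65 (edgeR, adjusted p = 0.0295), and -0.81 (adjusted p = 0.00559) without that library. The call was lost without any 1 of the CDH11-/- libraries and with no filter, with an adjusted p of up to 0.0791.

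A further list of 65 tested interferon-induced genes outside the 37 gave 12 calls (18.5%), 4 higher and 8 lower, against 29.7% of all genes. Without CDH11+/+ replicate 2 the count was 22, against 23.0% of all genes in that fit, and without CDH11+/+ replicate 1 it was 7, against 20.8%. Their median log2 fold change was -0.17, with 44 of 65 below 0. The helicase gene Mov10 rose by 0.72, and Parp11 and Parp10 rose by 0.40 and 0.38, with the call of Parp10 lost without CDH11+/+ replicate 1 or 2. Parp11 was at 0.25 and not called in limma-trend on the normalized values, and at 0.26 and not called with the deposited factors as offsets. Lower were Slfn2 at -0.54, lost as a call without CDH11+/+ replicate 1, Trim34a at -0.40, Parp12 at -0.36, Helz2 at -0.32 and Znfx1 at -0.31. The same library stood low within its group here too, with CDH11+/+ replicate 2 the lowest of the 3 in 51 of 65, against 31.7% of all genes.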

How the data were processed

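Kidney RNA was sequenced in 7 directional libraries, per the labels. The authors' expected counts per gene were deposited as whole numbers, so no rounding was needed. The authors' deposited normalized signal equals the counts times factors that differ between genes within a library, and what sets them is not given in the sources used here. It entered only alternatives. DRAGEN, DESeq2 and mm10 are named, without versions, per the submitters' processing notes. How reads were divided among overlapping genes or by strand is not given in the sources used here.

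Symbols and positions came from GENCODE M21 (GRCm38), and all 42256 identifiers matched. After filterByExpr on the groups, 17964 genes were fitted with edgeR 4.0.16 (R 4.3.3) by the quasi-likelihood test, TMM scaling and robust estimation, 2-sided, without covariates, and adjusted over all of them. CPM used TMM-scaled library sizes, log2 CPM a prior count of 2, and intervals are the log2 fold change ± SE times the 95% t quantile on 5 degrees of freedom, apart from edgeR's own test. The common dispersion was 0.0231 (biological coefficient of variation 15.2%). No pair of the 7 libraries agreed within sampling noise.

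Every member is named. Called members, and the most abundant per kilobase of each role, have all values given, and others by fold change. Values in every library of Ifit1, Ddx58, Gbp3, Rsad2 and the pathway genes were added after they were seen. Of other lists, up to 4 called genes by adjusted p (8 for the further interferon-induced genes), Ifnar1 and Ifngr1 are named. Some genes under this rule are not reported here. The members and lists were chosen with earlier results of these data known. Other fits used DESeq2 1.42.0, limma-voom with quality weights, and limma-trend (limma 3.58.1) on the deposited normalized signal, as log2 with a pseudocount of 1. Further edgeR fits changed the scaling (relative log expression or upper quartile), the filter (none, or genes with a mean CPM of 1 or more) or the robust estimation, added 1 surrogate variable (sva 3.50.0), or left out each library in turn.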

Additional observations from a re-analysis of the deposited data

Results flagged for a closer look

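In 4 members, 1 of the 4 libraries labelled CDH11-/- stood apart, with a gap to its nearest neighbour that was a larger share of the group's range than Dixon's 95% critical value. Chance gives about 1 such gap in 20 groups, and 37 were examined. Isg15 was at 1.52 CPM in replicate 3, against 0.73 to 0.83 CPM in the others, a gap of 0.873 of the range. Xaf1 was at 3.49 CPM in the same library, against 2.54 to 2.61 CPM, a gap of 0.929. Parp9 was at 10.9 CPM in replicate 1, against 13.1 to 13.5 CPM, a gap of 0.837. Dtx3l, its overlapping neighbour, was at 14 CPM in replicate 1, against 17.6 to 18.2 CPM, a gap of 0.84.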

How the results depend on the processing

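No paired analysis was possible because the replicate numbers are in accession order and pair no libraries. Members called, 3 in the edgeR fit, against 29.7% of all genes, numbered 7 with DESeq2 (6 lower, against 30.6% of all genes called), 1 with no filter (0 lower, 5 at an unadjusted p under 0.05, against 19.3%), 2 with limma-voom (1 lower, against 32.3%), 5 with limma-trend (4 lower, against 25.9%), 7 with 1 surrogate variable (6 lower, against 30.3%) and 5 with the deposited factors as offsets (4 lower, against 25.8%), the last chosen after seeing the data. Leaving out 1 library gave 1 to 15 called (1 to 2 higher, 0 to 14 lower, and 2 to 20 lower at an unadjusted p under 0.05, against 20.8% to 29.3% of all genes called), and 7 to 22 of the other interferon-induced genes. The cause was not tested. Trim25 was called higher in each. The sign turned in 9 members and in Ifngr1, each uncalled with all libraries. With limma-voom, log2 fold changes were 0.31 for Oasl1, 0.035 for Iigp1, 0.036 for Rtp4 and 0.0026 for Ifngr1. With limma-trend they were 0.12 for Oasl1, -0.0098 for Parp9 and 0.019 for Rtp4, and with the deposited factors -0.017 for Dhx58 and -0.017 for Parp9. With 1 library left out they ran from -0.37 to 0.11 for Irf7, -0.24 to 0.15 for Oas1a, -0.37 to 0.59 for Oasl1, -0.27 to 0.029 for Oasl2, -0.46 to 0.25 for Iigp1, -0.023 to 0.18 for Parp9, -0.28 to 0.038 for Ifi27, -0.38 to 0.12 for Rtp4 and -0.073 to 0.014 for Ifngr1. Oas3, Oasl1, Zbp1, Dhx58, Isg15 and the ligands had the fewest counts, which limits what they can show.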
